A study of Mus musculus with 8 samples.

Results

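The hCG response of RNA was examined in granulosa cells of control (CTL) mice, by setting the 3 CTL libraries made 4 h after hCG against the 3 CTL libraries made before it. These 6 libraries were chosen by their labels alone, with no measured value, and they are 6 of the 12 RNA libraries of a study of LRH-1 (Nr5a2) around the ovulatory signal. The CTL libraries taken after hCG came from mice that received 5 IU of eCG and, 44 h later, 5 IU of hCG. The CTL libraries taken before hCG came from mice that had received eCG, with granulosa cells collected at 0 h. All mice were C57BL/6 females aged 22 to 25 days, so the animals were immature and every group carried the eCG treatment. The genotype of CTL is given as LRH-1 +/+ and, in the protocol, as Nr5a2 f/f Amhr2 Cre/-, so CTL mice carry floxed alleles and no Cre. The other 6 RNA libraries, which share the fitted spread and serve for comparison of the response, are from conditional knockout (cKO) mice, Nr5a2 f/f Amhr2 Cre/+, at the same times; their Cre is driven by Amhr2. Granulosa cells were obtained by puncturing the ovary, and libraries started from 300 ng of total RNA.

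The ovulatory signal is a surge of luteinizing hormone, and hCG, which binds the same receptor, stands in for it in mice primed with eCG. In granulosa cells of the preovulatory follicle the receptor raises cyclic AMP, which leads to EGF-like factors, prostaglandin and matrix synthesis, expansion of the cumulus, rupture of the follicle and luteinization. LRH-1 is a nuclear receptor of granulosa cells that is required for ovulation in mice. The deposited tables list Ensembl transcripts by identifier. None of the 110473 identifiers was matched to a gene here (0 paired), so the ovulatory genes, granulosa cell markers, markers of other ovarian cells and the state of Nr5a2 were not analysed, and the response is described at the level of transcripts. The labelled cell type was likewise not checked. In bulk libraries such as these, fewer cells of a type and less RNA per cell cannot be told apart.

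Each library is a table of estimated counts and of TPM (a share of transcripts, scaled for length) per transcript. CTL libraries 1, 2 and 3 held 18286964, 16057827 and 12517554 estimated counts after hCG, against 15439164, 10336427 and 9250965 before it. The cKO libraries held 16721397 to 23753060 after hCG and 12867403 to 18022984 before it. The labels do not say whether the 3 libraries of a group came from separate animals or pools, so p-values measure only the spread between these libraries, which may be technical.

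The CTL libraries differed from each other within a time about as much as between times. Over 1655 transcripts that averaged 100 CPM or more in CTL (CPM are counts brought to one common total per library), Pearson's r of log2(CPM + 1) between libraries of the same time ran from 0.0887 to 0.202 after hCG and from 0.192 to 0.549 before it. Between the times, r reached 0.46 for the libraries numbered 1 and 0.49 for those numbered 3, and was 0.02 for those numbered 2. The other pairs of an after-hCG and a before-hCG library ran from -0.0282 to 0.41. These values describe pairs of libraries over transcripts that are not independent of each other.

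**Figure D1:**
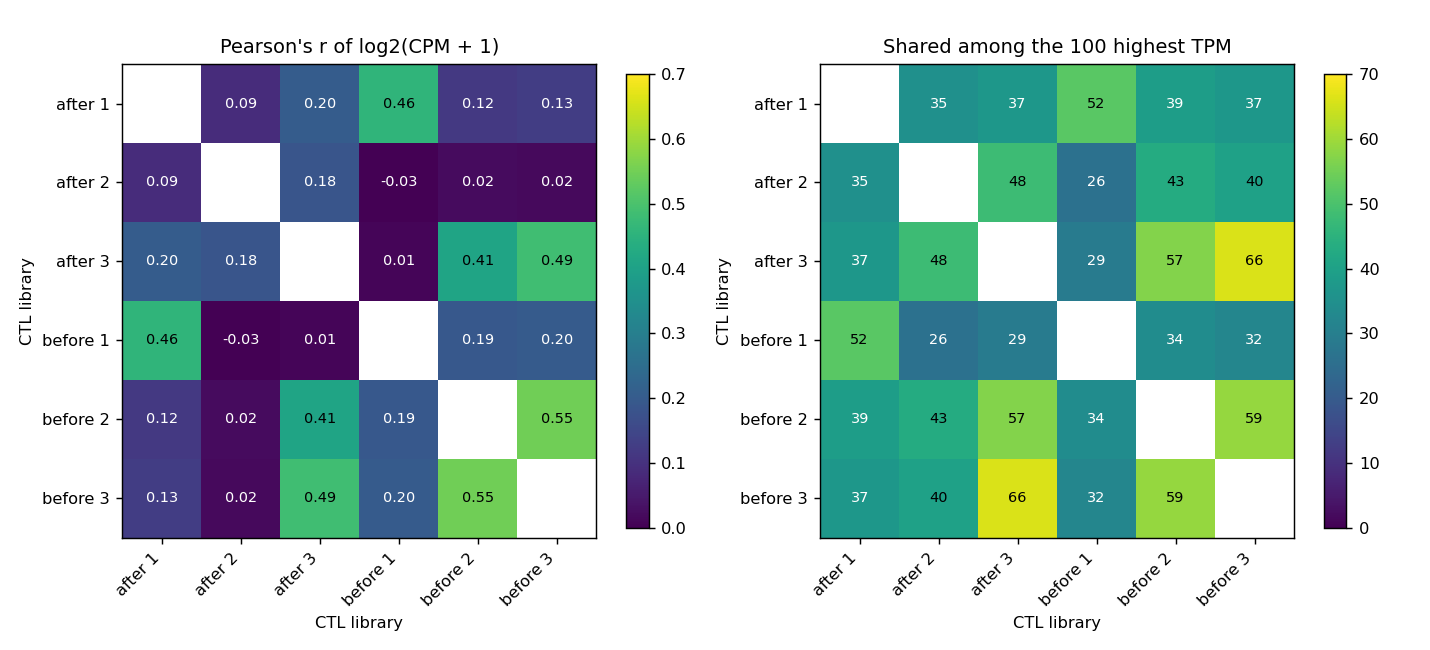
Pairwise resemblance of the 6 CTL libraries, with the 3 after-hCG libraries first on both axes. Left, Pearson's r of log2(CPM + 1) over 1655 transcripts; right, the number of transcripts shared between the 100 highest TPM values of each library. The after-hCG and before-hCG libraries numbered 1 (r = 0.46) and numbered 3 (r = 0.49) lie above every pair within the after-hCG group.

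The lists of the 100 most abundant transcripts were shared across times as much as within them. After-hCG library 3 and before-hCG library 3 shared 66 of 100, and after-hCG library 1 and before-hCG library 1 shared 52 of 100. Pairs within a time shared 35, 37 and 48 after hCG, against 34, 32 and 59 before it. The fewest, 26, were shared by after-hCG library 2 and before-hCG library 1. Across the 6 libraries 303 transcripts were in at least 1 such list and 16 were in all of them. None of these 16 had all after-hCG libraries on 1 side of all before-hCG libraries (0 higher and 0 lower). The 16 transcripts made up 18.7, 9.01 and 7.12% of TPM after hCG, against 10.4, 6.89 and 7.86% before it. The whole list of 100 made up 59.0, 41.7 and 32.1% of TPM after hCG, against 45.1, 38.3 and 33.1% before it. The most abundant RNA of these cells was thus shared in part between the times, and its share varied as widely among replicates as between times.

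After hCG the RNA was spread over fewer transcripts on average, with overlapping libraries. At equal depth, scaled to the smallest library, 19812.9, 10078.5 and 25381.1 transcripts were detected after hCG, against 23973.4, 24689.7 and 32099.0 before it. After-hCG library 2 stood lowest and before-hCG library 3 highest, and after-hCG library 3 lay above 2 of the before-hCG libraries. The means were 18424.2 ± 7745.29 after hCG and 26920.7 ± 4498.82 before it (SD, n = 3 each; difference -8496.53), with p = 0.3 in a two-sided exact permutation test, whose smallest possible p is 0.1.

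The other measures of a whole library shifted in the same sense. The effective number of transcripts (the number of equally abundant transcripts that would give the same diversity) was 2157.33, 1774.66 and 3768.62 after hCG, against 4210.4, 3478.96 and 5221.29 before it (difference -1736.68, exact permutation p = 0.2, n = 3 each). The 100 transcripts with most counts held 34.5, 28.7 and 25.1% of counts after hCG, against 23.0, 27.2 and 21.9% before it (difference 5.41 percentage points, exact permutation p = 0.2, n = 3 each). In both measures the groups overlapped, with after-hCG library 3 among the before-hCG values.

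The counts also lay on shorter transcripts after hCG, by a difference that shrank to -41.6 bases when transcripts were weighted by TPM in place of counts. The mean length of the transcript on which a count lay was 3391.83, 3258.15 and 3612.23 bases after hCG, against 3866.91, 3711.5 and 3786.09 bases before it. Here no library of one time overlapped the other. The difference was -367.431 bases, with the smallest p that the exact permutation test allows (p = 0.1, n = 3 each). Over the 4 measures the Benjamini-Hochberg adjusted p was 0.266667 for this one and for the effective number and the share of the top 100, and 0.3 for the detected transcripts, so none passed.

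**Figure D2:**
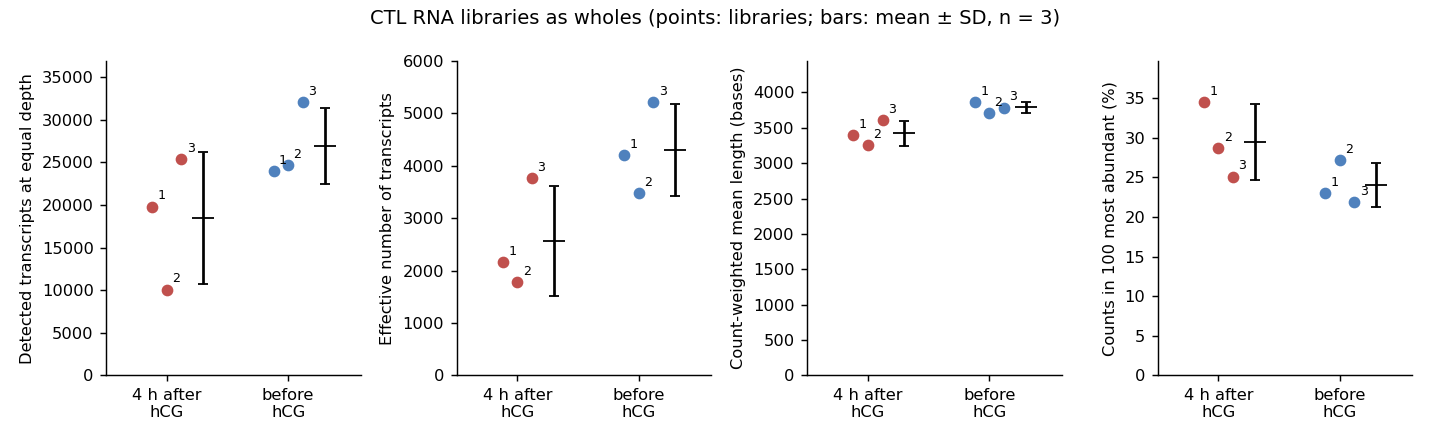
Measures of each CTL library: transcripts detected at equal depth, effective number of transcripts, count-weighted mean transcript length in bases, and percent of counts in the 100 most abundant transcripts. Points are libraries with their number, bars are mean ± SD (n = 3), after hCG on the left; the groups are apart in length alone, where all after-hCG libraries lie at or below 3612.23 bases.

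The shares of counts by transcript length showed which classes differed. Transcripts of 1000 to 2000 bases took 20.5, 19.7 and 15.9% of counts after hCG, against 15.8, 14.4 and 14.7% before it. Those of 2000 to 4000 bases took 29.1, 30.3 and 31.4% after hCG, against 33.2, 33.1 and 31.8% before it. Both classes were apart between the times (exact permutation p = 0.1, n = 3 each, with 0.25 after Benjamini-Hochberg adjustment over 5 classes). Shares of transcripts under 500 bases were 4.26 ± 0.197% after hCG and 4.48 ± 0.540% before it (SD, n = 3 each), and those of the 500 to 1000 base class 17.0 ± 1.31% after hCG and 15.8 ± 1.03% before it. Transcripts of at least 4000 bases took 29.8 ± 1.86% after hCG and 32.0 ± 1.41% before it. These last 3 classes overlapped between the times.

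Tested transcript by transcript, very few changes between the times passed the threshold, which says little about how large the changes were. edgeR's quasi-likelihood test on 32944 transcripts, fitted over all 12 RNA libraries, called 1 transcript higher after hCG (0.00304% of those tested) and 1 lower (0.00304%), or 0.00607% in all, at a Benjamini-Hochberg adjusted p under 0.05. At an unadjusted p under 0.05, 1315 were higher and 3520 lower. That balance turned to 3230 higher and 1669 lower with upper quartile scaling, to 1049 and 855 without after-hCG library 1, and to 1220 and 777 without after-hCG library 2. The fitted common coefficient of variation between libraries of a group was 2.43, so counts of a typical transcript varied by more than their mean. The median fitted log2 change over all transcripts tested was -0.77 (quartiles -4.52 and 1.51), and 58.4% lay below 0. That median depended on the scaling, being -1.03 with the size factors of DESeq2's kind (RLE) and 0 with upper quartile scaling, so the lean towards lower values is relative to the scaling chosen. It also moved with single libraries, to 0 without before-hCG library 3 and to -2.88 without after-hCG library 3.

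Large fitted changes were found in both directions and were more often downward. For a transcript with 0 counts in every library of 1 time, the fitted size depends on the prior count that edgeR adds. Such a size is not a measured fold change. Between 2 and 5 on the log2 scale there were 4071 higher and 5107 lower transcripts, between 5 and 10 there were 2172 higher and 6037 lower, and at 10 or more 664 higher and 1555 lower. Among the 100 transcripts with the smallest adjusted p, 68 were higher and 32 lower after hCG. Of these 100, 49 had 0 counts in every before-hCG library and 26 had 0 counts in every after-hCG library. Most transcripts at the top of the ranking were thus listed at 0 at 1 of the times. The share of such transcripts among all those tested was not counted here.

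**Figure D3:**
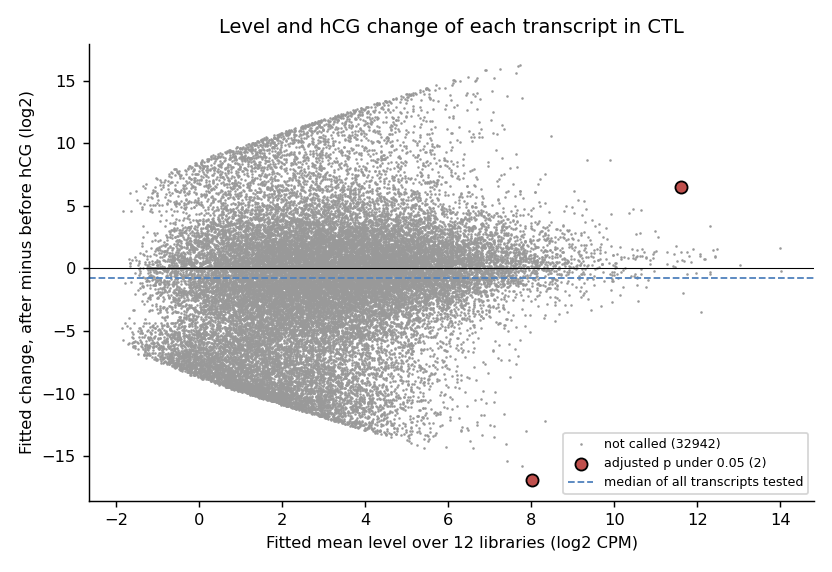
Fitted mean level (log2 CPM, over 12 libraries) against the fitted log2 change, after minus before hCG, of the 32944 transcripts tested in CTL. The 2 circled points passed the adjusted threshold; the dashed line is the median change of -0.77, and the curved edges are transcripts with 0 counts at 1 time.

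Neither called transcript kept its groups apart. ENSMUST00000055820 (638 bases) had 0, 1494.85 and 1508.86 CPM after hCG, against 41.0647, 0.48373 and 0 CPM before it. After-hCG libraries 2 and 3 were high, while after-hCG library 1 was at 0, as was before-hCG library 3. It averaged 1001.24 ± 867.124 CPM after hCG and 13.8495 ± 23.5703 CPM before it (SD, n = 3 each), a ratio of 72.3 and a fitted log2 change of 6.51 (approximate SE 1.36; edgeR adjusted p = 0.0335). This call was lost in a fit of the 6 CTL libraries alone (edgeR adjusted p = 0.517) and without before-hCG library 2, before-hCG library 3 or after-hCG library 2 (adjusted p 0.481, 0.485 and 0.1004 in turn).

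ENSMUST00000108759 (2309 bases) was listed at 0 in all after-hCG libraries, against 0, 2589.5 and 861.762 CPM before hCG. Before-hCG libraries 2 and 3 were high and before-hCG library 1 was at 0, like the after-hCG libraries. It averaged 1150.42 ± 1318.66 CPM before hCG (SD, n = 3). Set against a floor of 3 counts over the after-hCG group, it was at least 17970.4-fold lower after hCG (edgeR adjusted p = 0.0335). That bound uses the before-hCG mean and leaves out the spread between libraries. The fitted log2 change was -16.89 (approximate SE 3.56). Leaving out any one of the after-hCG libraries, or before-hCG library 2 or 3, took the adjusted p to between 0.131 and 0.481.

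In each direction the next transcript by adjusted p whose groups did not overlap is given as well; both missed the threshold, and all 4 transcripts were chosen after their values were seen, since no call met the naming rule. ENSMUST00000109544 (5702 bases) had 910.93, 345.129 and 402.399 CPM after hCG and 0, 0 and 0 before it. On the TPM scale its after-hCG levels were 158.136, 62.0342 and 84.262. Every after-hCG library thus carried it and no before-hCG library did, a level at least 6454.38-fold higher after hCG (edgeR adjusted p = 0.0664, and 0.0172 in a fit of the 6 CTL libraries alone). The fitted log2 change was 16.26 (approximate SE 3.64).

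ENSMUST00000112568 (7422 bases) had 0, 0 and 0 CPM after hCG and 474.058, 601.276 and 572.166 CPM before it. Its before-hCG libraries lay close together, at 549.167 ± 66.6548 CPM (SD, n = 3), and the after-hCG level was at least 8578.36-fold lower (edgeR adjusted p = 0.0664, and 0.0229 in a fit of the 6 CTL libraries alone). The fitted log2 change was -15.79 (approximate SE 3.57). kallisto divides reads among transcripts that share sequence, so a transcript's count can move with that division while its gene's total does not. Whether these 4 share sequence with others was not analysed here.

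**Figure D4:**
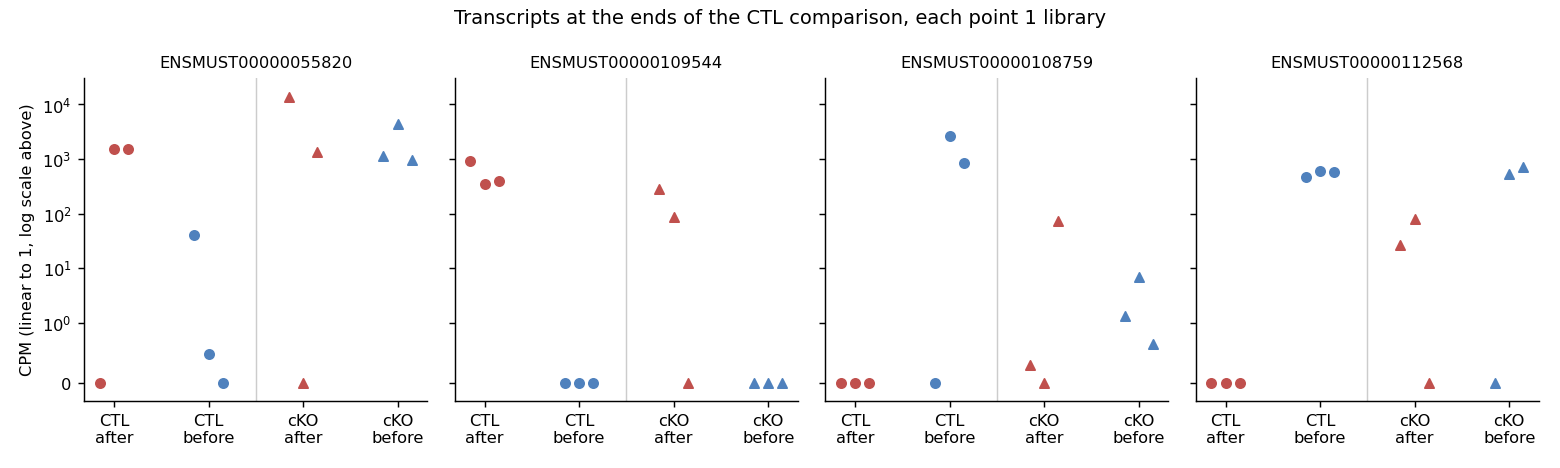
CPM of the 4 transcripts in each library (linear to 1 and logarithmic above it), with CTL libraries as circles on the left, cKO libraries as triangles on the right, and after hCG left of before hCG in each. ENSMUST00000109544 and ENSMUST00000112568 keep their CTL groups apart; the called ENSMUST00000055820 and ENSMUST00000108759 have libraries at 0 in both CTL groups.

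The response of CTL libraries was also set against that of cKO libraries by an interaction term, CTL response minus cKO response. Of the 32944 transcripts, 11 differed (0.0334%; edgeR adjusted p under 0.05), 4 with a higher and 7 with a lower response in CTL. For ENSMUST00000108759 the difference was -20.37 on the log2 scale (edgeR adjusted p = 0.00697), a fitted value that depends on the prior count because the CTL after-hCG libraries were at 0. In cKO this transcript had 0.299019, 0 and 72.9172 CPM after hCG, against 1.32119, 6.7692 and 0.64231 CPM before it. For the other 3 named transcripts the difference in response did not pass (edgeR adjusted p = 0.239 for ENSMUST00000055820, 0.9998 for ENSMUST00000109544 and 0.206 for ENSMUST00000112568). ENSMUST00000109544 had 282.454, 85.5475 and 0 CPM after hCG in cKO and 0, 0 and 0 CPM before it. ENSMUST00000112568 had 26.0147, 79.0439 and 0 CPM after hCG in cKO, against 0, 528.053 and 710.979 CPM before it. ENSMUST00000055820 ran from 0 to 13615.1 CPM over the cKO after-hCG libraries, against 960.312 to 4377.78 CPM before hCG.

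Most transcripts were detected in some of the CTL libraries and not in others. Of 56100 transcripts with a count in any CTL library, 3657 had one in all 6 and 19396 in 1 library only. The 3657 nevertheless held 60.0, 59.0 and 53.1% of counts after hCG, against 47.0, 51.2 and 47.5% before it, so every after-hCG library lay above every before-hCG library in this share. Membership required a count in all 6 libraries, so it was limited most by after-hCG library 2, which had fewest transcripts with a count (11233). The shares thus depend in part on how the set was chosen, and their difference was not tested.

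Transcripts found at 1 time only were fewer after hCG than before it. A count in all 3 after-hCG libraries and in no before-hCG library was found for 150 transcripts (0.267% of 56100), and the reverse for 1172 (2.09%). With at least 20 TPM in each library of their time, 10 were found only after hCG (0.0178%) and 25 only before it (0.0446%). At that level equal depth left 10 and 27. The balance at 20 TPM turned without after-hCG library 2, the library with fewest transcripts (53 only after hCG and 32 only before it), and without after-hCG library 1 (59 and 57). In cKO libraries the same rule gave 6 only after hCG and 66 only before it.

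At 5 TPM or more in each library, 25 transcripts were found only after hCG (0.0446% of 56100) and 112 only before it (0.2%) in CTL. The 25 had a median level of 73.8 TPM after hCG and reached 1254.91 TPM, with a median length of 1489 bases. The 112 had a median of 33.5 TPM before hCG and reached 242.623 TPM, with a median length of 675 bases. In cKO libraries, which had no part in this choice, the mean of 15 of the 25 was higher after hCG, 7 were lower and 3 had no count. Of the 112, 20 were higher after hCG in cKO, 85 were lower and 7 had no count. Over all 18377 transcripts with a mean of at least 5 TPM in CTL, 5440 were higher after hCG in cKO, 11446 were lower and 1491 had no count.

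Among transcripts whose groups did not overlap, abundant ones were more often higher after hCG and scarce ones more often lower, a split that was not tested. Of the 33104 transcripts with a mean of 1 to 100 TPM over the 6 CTL libraries, 407 (1.23%) had every after-hCG library above every before-hCG library, and 2319 (7.01%) had every after-hCG library below. Of the 1177 with a mean of at least 100 TPM, 71 (6.03%) were higher throughout after hCG and 36 (3.06%) lower. Over all 34281 transcripts of at least 1 TPM, 478 (1.39%) were higher throughout and 2355 (6.87%) lower. With 3 libraries a side, staying apart corresponds only to a two-sided exact permutation p of 0.1, the smallest possible. Many transcripts can therefore stay apart without any change, and their number was not estimated. Shares of the size given here are not read as changes of these transcripts. In finer classes, 0.635% were higher and 7.08% lower at 1 to 5 TPM, 1.29% and 7.24% at 5 to 20 TPM, and 2.79% and 6.31% at 20 to 100 TPM. From there the order turned, with 5.78% higher and 3.09% lower at 100 to 500 TPM, 8.4% and 3.36% at 500 to 2000 TPM, and 5.45% and 1.82% at 2000 TPM or more. This last class held 55 transcripts, of which 3 were higher and 1 lower. Scaling TPM by the TMM factors gave 88 higher and 29 lower at 100 TPM or more.

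The lean of the abundant transcripts rested on single libraries. Without after-hCG library 3 the split at 100 TPM or more was 116 higher and 118 lower, and without before-hCG library 1 it was 108 higher and 125 lower. Leaving out any of the other 4 kept more higher than lower (57.3 to 64.9% higher). Below 100 TPM lower transcripts stayed in the majority without each library, the share of higher being 41.8% without after-hCG library 2. In that library 16.4% of the transcripts of 1 to 5 TPM had a count, against 40.1 and 48.9% in after-hCG libraries 1 and 3 and 47.4 to 62.4% in before-hCG libraries. In cKO, 1267 transcripts had a mean of at least 100 TPM over the cKO libraries. Of these, 57 (4.5%) were higher throughout after hCG and 81 (6.39%) lower.

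**Figure D5:**
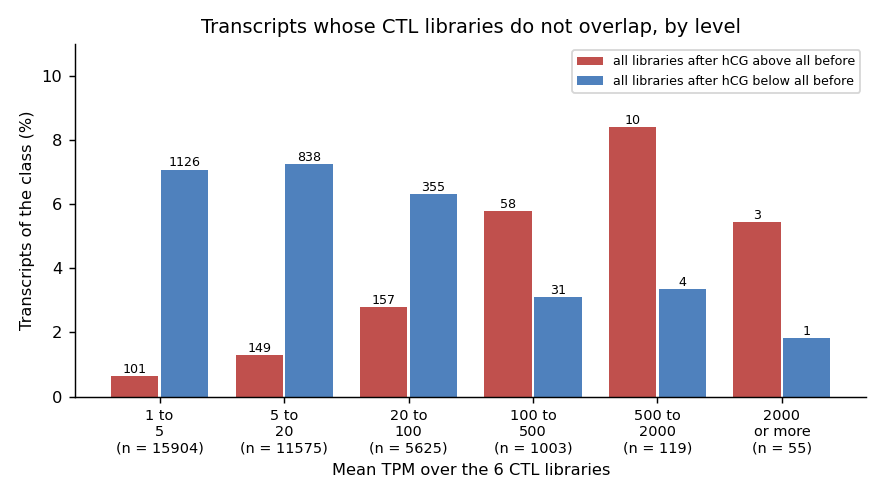
Percent of transcripts in each class of mean TPM (over the 6 CTL libraries) whose after-hCG libraries all lie above (left bar) or all below (right bar) the before-hCG libraries, with counts on the bars. Lower transcripts prevail below 100 TPM and higher ones from 100 TPM on (71 against 36), a lean that is lost without after-hCG library 3 or before-hCG library 1.

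The 71 abundant transcripts that were higher throughout had a median ratio of mean TPM of 15.9, and 41 of them were at least 10-fold higher, counting those listed at 0 before hCG. Together they made up 4.34, 7.92 and 4.03% of TPM after hCG, against 0.551, 0.404 and 0.599% before it, and after-hCG library 2 carried most. Of the 71, 40 had a count in all 6 libraries. The 36 that were lower throughout made up 0.429, 0.0831 and 0.277% of TPM after hCG, against 3.35, 2.76 and 7.51% before it, with a median ratio of 18.0 and 14 of them with a count in all 6 libraries. These values describe sets chosen for not overlapping, so the sums differ by construction.

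In the cKO libraries, which that choice did not use, the mean TPM was higher after hCG for 50 of the 71 (70.4%) and for 14 of the 36 (38.9%), against 486 of all 1177 transcripts of that level (41.3%). Every cKO after-hCG library lay above every cKO before-hCG library for 10 of the 71, against 2 the other way. Of the 36, 0 were higher and 6 lower in that sense in cKO, and of all 1177, 39 were higher and 98 lower. Median lengths were 1148 bases for the 71, 706.5 bases for the 36 and 676 bases for all 1177.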

How the data were processed

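RNA of granulosa cells was sequenced in 4 groups of 3 libraries (CTL and cKO, 4 h after and before hCG). Per the submitters' processing notes, the tools were kallisto, TopHat2 2.0.12, DESeq2 and Trimmomatic and the build mm9; their roles and order are not given. Each deposited table lists, for every transcript, the estimated counts, the TPM and the length and effective length, per the file headers. Groups come from the labels and library numbers from the files alone. The 6 CTL libraries were chosen by their labels, with no measured value used. Earlier results of these data were known when they and the lists were chosen. The planned test per gene, gene lists and cell type markers were not run, because transcripts were not matched to genes (0 paired), and sequences are not given for the same reason.

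Estimated counts were rounded. edgeR 4.0.16 (R 4.3.3) kept 32944 of 110473 transcripts with filterByExpr (95.9% of counts), scaled by TMM and fitted all 12 libraries in 1 quasi-likelihood model of 4 groups, calling a Benjamini-Hochberg adjusted p under 0.05. SEs were derived from the F statistic. CPM divide the rounded counts by each library's total. Whole-library measures were compared by two-sided exact permutation. Classes of level and non-overlap used deposited TPM. The naming rule (past the threshold, groups not overlapping, at least 5 CPM) was met by 0 calls. Depth was 9250965 to 18286964 estimated counts in CTL, so precision was limited by the spread between libraries, and the floor of 3 counts covers counting error only. Alternatives were other scalings, filters, DESeq2 1.42.0, limma 3.58.1 on log2(TPM + 1) and log2(TPM + 0.1), the replicate block, a length offset and leaving out each library. Some were chosen after seeing the data: the filter at 100 CPM, the fit of 6 libraries with block, and leaving out both libraries numbered 1. So were the settings for non-overlap and those for transcripts found at 1 time only (equal depth and leaving out each library). The test was tested on simulated data with 4-fold and 16-fold changes. At a coefficient of variation of 0.4 it recovered 63% of 4-fold and 100% of 16-fold changes, with 8 false calls. At 2.4, like the one fitted here, it recovered 0% of either, with 0 false calls. Changes to or from 0 counts were not simulated. A low number of calls therefore says little about how much RNA changed. Same-numbered CTL libraries were checked for pairing by the correlation of their deviations from the group means, and were not taken as paired. Peak lists of the series were not used.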

Additional observations from a re-analysis of the deposited data

Results flagged for a closer look

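The response to hCG differed between CTL and cKO libraries for 11 transcripts, by a test of the difference itself (edgeR interaction term, Benjamini-Hochberg adjusted p under 0.05 over 32944 transcripts, 4 higher and 7 lower in CTL). At an unadjusted p under 0.05 there were 2608 higher and 1789 lower.

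ENSMUST00000108759 is one of them and was also called within CTL. Its CTL response minus cKO response was -20.3676 on the log2 scale, with 2 of 3 before-hCG CTL libraries high and all after-hCG CTL libraries at 0.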

How the results depend on the processing

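The 2 transcripts called in CTL with edgeR (1 higher, 1 lower) became 4 with upper quartile scaling and 4 in a fit of the 6 CTL libraries only. The count was 0 without a filter (unadjusted p under 0.05: 1339 higher, 2204 lower), 0 at a mean of at least 10 CPM (564 and 958), 0 at 100 CPM (47 and 33) and 0 in a robust fit (1353 and 3837). It was 0 with limma on log2(TPM + 1) (492 and 1680) and 0 on log2(TPM + 0.1) (494 and 2031), and 1 without both libraries numbered 1. DESeq2 called 3099 (741 higher, 2358 lower), of which 2594 (83.7%) had 0 counts in every library of 1 time. The share of such transcripts among all those tested was not counted, so the 83.7% has no background beside it. DESeq2 gave no adjusted p for 8711 of the 32944 transcripts. RLE scaling (3), the length offset (2) and a minimum fold change of 1.5 (2) stayed within 1.5 times. Leaving out each CTL library gave 0 to 5 calls, with 0 without after-hCG library 2, before-hCG library 2 or before-hCG library 3. Over the alternatives run the adjusted p ran from 1.36e-06 to 0.959 for ENSMUST00000055820, from 1.96e-16 to 0.758 for ENSMUST00000108759, from 1.29e-16 to 0.757 for ENSMUST00000109544 and from 8.55e-17 to 0.758 for ENSMUST00000112568, each in the same direction throughout. ENSMUST00000108759 has no value in the 2 fits of the 6 CTL libraries only, where it did not pass the filter on low counts.

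The 11 transcripts whose response differed between CTL and cKO became 0 with upper quartile scaling (unadjusted p under 0.05: 3221 higher, 1946 lower), 0 at 10 CPM (869 and 658), 0 at 100 CPM (35 and 26), 2 in a robust fit, 4 without both libraries numbered 1, 3493 with DESeq2, and 0 and 0 with limma at pseudocounts of 1 (982 and 366) and 0.1 (1210 and 430). Leaving out each CTL library gave 3 to 13.

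With the replicate number as a block, edgeR called 7 in CTL (4 higher, 3 lower), with ENSMUST00000109544 and ENSMUST00000112568 now past the threshold (adjusted p = 0.0311 each), and 17 in a fit of the 6 CTL libraries with the block. The response differed for 11 (3 higher, 8 lower). The deviations of same-numbered libraries correlated at 0.254, 0.0338 and 0.199 for numbers 1, 2 and 3 (transcripts of at least 10 CPM), and 5 of 6 libraries were closest to their own number, a hint from the data and not the design.

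With CPM in place of TPM for both level and non-overlap, 1655 transcripts averaged 100 CPM or more. Of these, 135 (8.16%) were higher throughout after hCG and 97 (5.86%) lower. At 100 TPM or more, leaving out each library gave 94 to 183 higher and 60 to 125 lower. At 20 TPM it gave 19 to 59 found only after hCG and 32 to 215 found only before it. Fewer libraries raise these counts by construction. The 4 whole-library measures kept their direction without each library: -11975 to -4323.67 detected transcripts, -2337.56 to -1277.81 effective transcripts, -463.176 to -286.139 bases and 2.87 to 7.58 percentage points. Weighting by TPM in place of counts made the difference in length -41.6 bases. The causes of these changes were not tested.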
